A study of Homo sapiens with 6 samples.

Results

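The HOX cluster miRNAs are small regulatory RNAs cut from hairpins that lie among the homeobox genes of the 4 human HOX clusters. Of the 2588 mature miRNAs listed for each library, 8 were taken by name: hsa-miR-10a-5p, hsa-miR-10a-3p, hsa-miR-10b-5p, hsa-miR-10b-3p, hsa-miR-196a-5p, hsa-miR-196b-5p, hsa-miR-196b-3p and hsa-miR-615-3p. They were followed in small RNA libraries of A549 cells, a human lung carcinoma epithelial line, and in BEAS-2B, a virus-immortalised line of normal human bronchial epithelium, both labelled as wild type. Each line was left untreated or was given 1 or 5 ng/mL TGF-β1, a growth factor under which epithelial cells take on mesenchymal features, for 48 h. There were 6 libraries, 1 per cell line and dose, so the comparisons asked how the miRNAs differed between the lines, between treated and untreated cells and between the doses. The labels describe a serum-rich medium for culture of both lines and a low-serum medium given along with TGF-β1, without saying whether the untreated cells were moved to the low-serum medium too. With 1 library per group no test was made, no value has a replicate error, and every 95% interval covers counting error only.

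HOX genes encode transcription factors that give cells their position along the body axis, and their order on the chromosome follows the order in which they act. The miRNA hairpins between them are often active in the same parts of the body as the neighbouring HOX genes, and several of their known targets are themselves HOX mRNAs. The best known cases are the cleavage of HOXB8 mRNA directed by miR-196 and the repression of HOXD10 by miR-10b. miR-10 is one of the oldest animal miRNA families, and its relatives outside the HOX clusters, miR-99, miR-100 and miR-125, share much of its sequence.

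A miRNA finds its targets mainly through its seed, bases 2 to 8 from the 5′ end. The mature sequences that show how the miRNAs are related are given here 5′ to 3′ from RefSeq (GRCh38.p14), with the seed in capitals, and 7 of the 8 miRNAs had an entry in the reference table. The first group holds the arms of miR-10a and the minor arm of miR-10b, the next the miR-196 arms, and the next miR-615-3p. The last group holds the relatives of miR-10 outside the HOX clusters, shown because their levels serve as a comparison.
hsa-miR-10a-5p: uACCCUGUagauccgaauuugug
hsa-miR-10a-3p: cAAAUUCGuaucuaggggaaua
hsa-miR-10b-3p: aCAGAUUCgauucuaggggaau
hsa-miR-196a-5p: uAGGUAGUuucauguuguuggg
hsa-miR-196b-5p: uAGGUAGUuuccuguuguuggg
hsa-miR-196b-3p: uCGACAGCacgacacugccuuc
hsa-miR-615-3p: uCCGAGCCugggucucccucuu
hsa-miR-99a-5p: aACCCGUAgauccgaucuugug
hsa-miR-99b-5p: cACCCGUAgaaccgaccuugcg
hsa-miR-100-5p: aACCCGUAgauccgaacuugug
hsa-miR-125a-5p: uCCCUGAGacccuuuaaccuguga
hsa-miR-125b-5p: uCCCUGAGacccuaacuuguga

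miR-196a-5p and miR-196b-5p have the same seed and differ at 1 of 22 bases, A12C, with positions counted from the 5′ end and miR-196a-5p named first. The seed of miR-10a-5p differs from the seed shared by miR-99a-5p, miR-99b-5p and miR-100-5p and from the one shared by miR-125a-5p and miR-125b-5p. How the authors assigned reads that could come from close paralogs is not given in the sources used here, so the split between miR-10a-5p and miR-10b-5p and between miR-196a-5p and miR-196b-5p is uncertain to that extent.

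The hairpins lie in all 4 clusters (GRCh38.p14; gene structures from GENCODE release 29). MIR10A is in the HOXB cluster at chr17:48579838-48579947 on the minus strand, where it overlaps a UTR exon of HOXB4 and introns of HOXB3. MIR10B is in the HOXD cluster at chr2:176150303-176150412 (plus strand), inside an intron of HOXD3 and 0.809 kb before HOXD4. miR-196a-5p comes from 2 hairpins that give the same mature sequence, so its reads cannot be divided between them. These are MIR196A1 in an intron of HOXB7 (chr17:48632490-48632559, minus strand) and MIR196A2 in an intron of HOXC6, between HOXC10 and HOXC9 (chr12:53991738-53991847, plus strand). MIR196B is in the HOXA cluster at chr7:27169480-27169563 on the minus strand, within HOXA9 and 1.027 kb from HOXA10. Of 3 HOXA9 transcripts that span it, 1 has an exon there and 2 an intron. MIR615 is in introns of HOXC5 and HOXC4 (chr12:54033950-54034045, plus strand).

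**Figure D1:**
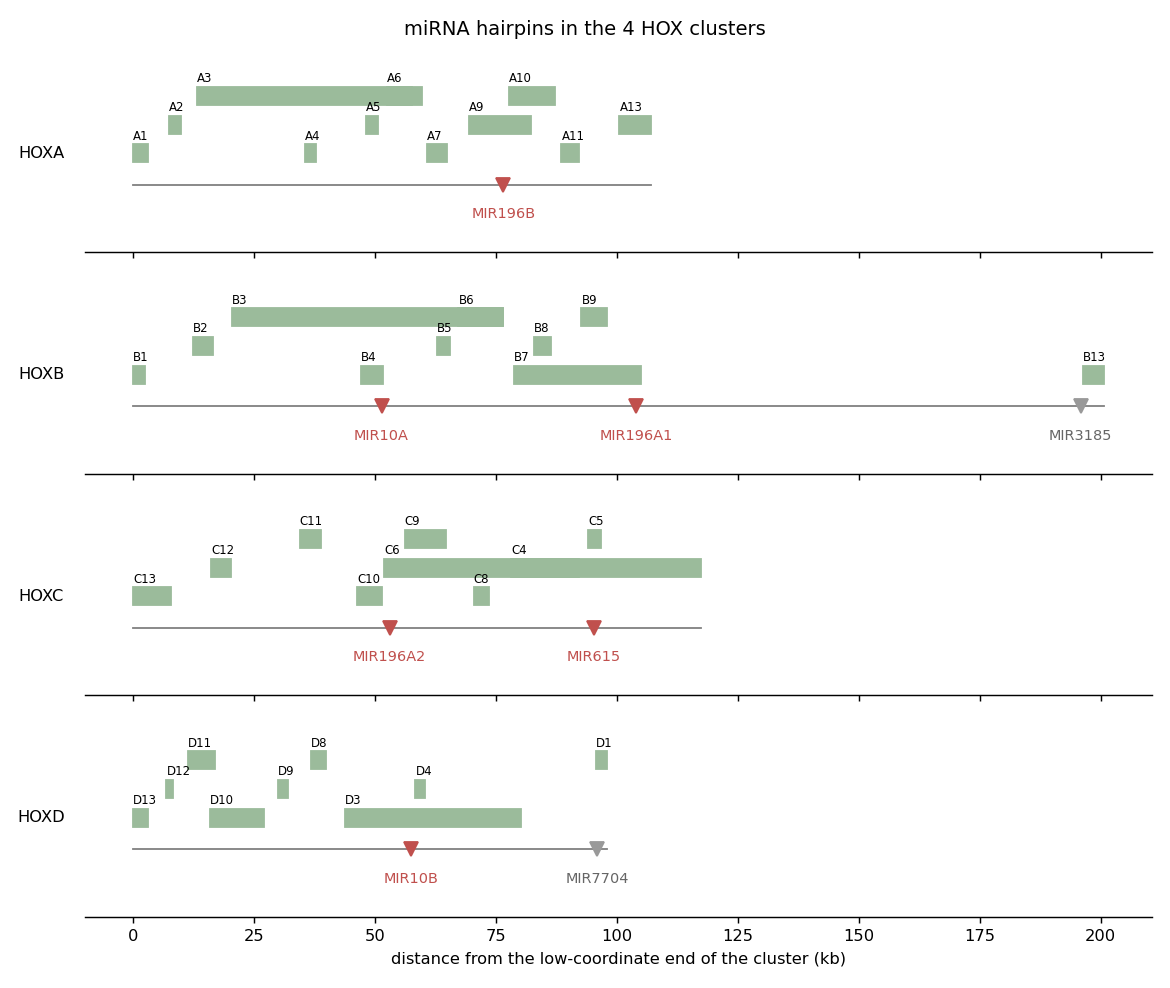
Map of the HOX clusters, with distance from the low-coordinate end of each cluster on the x axis in kb, drawn to scale. Boxes are HOX genes, spread over several rows for legibility, red triangles are the hairpins of the 8 miRNAs and grey triangles are the other hairpins. The clusters span 107 kb (HOXA), 201 kb (HOXB), 117 kb (HOXC) and 98.0 kb (HOXD), and each holds at least 1 hairpin of the miRNAs described here.

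Total counts ranged from 633318 to 900424 per library, and 3 counts, the upper limit that a count of 0 allows, were worth 3.33 to 4.74 CPM, the count after scaling each library to one common sum. Counts were scaled with the trimmed mean of M-values (TMM) over the 6 libraries, and ND, the normalised data value of a miRNA, is the log2 of its normalised count + 1. The BEAS-2B control stood apart, with a TMM factor of 1.32 against 0.829 to 1.02 in the other 5 libraries, and with 35.4% of its counts from hsa-miR-21-5p against 47.6 to 57.2% in the others. No BEAS-2B value against untreated cells can be had without that library. Ratios within a library, which no scaling changes, are given beside such values. In BEAS-2B cells their changes with treatment still rest on that library, and only its scaling factor drops out. Of the 6 epithelial marker miRNAs, miR-200b-3p had 139 to 356 counts in each library. For miR-200a-3p the counts were 33 to 73, for miR-200c-3p 6 to 38 and for miR-429 8 to 30. miR-141-3p and miR-205-5p had at most 8 and 2 counts. The 4 leukocyte markers summed to 9, 2 and 0 counts in A549 cells at 0, 1 and 5 ng/mL, mostly from miR-142-3p, and to 2, 4 and 0 counts in BEAS-2B cells, with miR-223-3p at 0 counts in all 6 libraries.

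The 8 miRNAs together made up 1.20% of the untreated A549 library (95% interval 1.18 to 1.23), 0.771% after 1 ng/mL and 0.838% after 5 ng/mL. In BEAS-2B libraries they made up 0.580% (0.562 to 0.597), 0.200% and 0.202% in the same order. Their share was thus lower in every treated library than in the untreated library of its line, and all A549 shares lay above all BEAS-2B shares. Most of the sum was miR-10a-5p, which supplied 81.9 to 85.1% of it in A549 cells and 94.2 to 94.9% in BEAS-2B cells. In A549 cells 7 of the 8 miRNAs had a count in each library, and in BEAS-2B cells 5 of the 8 did.

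miR-10a-5p, the main arm of the HOXB hairpin, was the most abundant of the 8 in every library. In A549 cells it had 8088 counts in the untreated library, 5861 at 1 ng/mL and 4346 at 5 ng/mL, or 8416, 5885 and 5058 normalised counts. The BEAS-2B libraries held 4034, 1246 and 1457 counts, or 3103, 1443 and 1428 normalised counts. The untreated library was the highest of each line, the ranges of the lines did not overlap, and the treated BEAS-2B libraries were level with each other. By count it ranked between 12 and 20 among all miRNAs in A549 libraries and between 23 and 38 in BEAS-2B libraries.

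miR-10a-3p, the opposite arm of the same hairpin, had 573, 349 and 304 counts in A549 cells at 0, 1 and 5 ng/mL. BEAS-2B cells had 196, 55 and 78 counts. As with the main arm, the untreated library was the highest of each line and every A549 library was above every BEAS-2B library.

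miR-10b-5p, the main arm of the HOXD hairpin, had 407, 374 and 277 counts in A549 cells at 0, 1 and 5 ng/mL. The corresponding BEAS-2B counts were 4, 2 and 3, at or close to the limit that a count of 0 allows. It was therefore well measured in A549 cells alone. Its opposite arm, miR-10b-3p, had 2 counts in each A549 library and 0 in each BEAS-2B library, so its level was not measurable at this depth.

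miR-196a-5p, from the HOXB and HOXC hairpins, had 87, 123 and 126 counts in A549 cells at 0, 1 and 5 ng/mL. BEAS-2B cells had 2, 2 and 4 counts. Within A549 cells the untreated library was the lowest, unlike the miR-10 arms. miR-196b-5p, from the HOXA hairpin, had 32, 28 and 41 counts in A549 cells and 0 in every BEAS-2B library. miR-196b-3p had 0 counts in all 6 libraries.

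miR-615-3p, from the HOXC hairpin, had 320, 205 and 212 counts in A549 cells at 0, 1 and 5 ng/mL. The BEAS-2B counts were 27, 8 and 5. The untreated library was the highest in both lines, and the lines did not overlap. In untreated A549 cells the order of normalised counts was miR-10a-5p (8416), miR-10a-3p (596), miR-10b-5p (424), miR-615-3p (333), miR-196a-5p (90.5), miR-196b-5p (33.3) and miR-10b-3p (2.08). Small RNA libraries capture different sequences with different efficiency, so the order of different miRNAs is an order of counts.

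**Figure D2:**
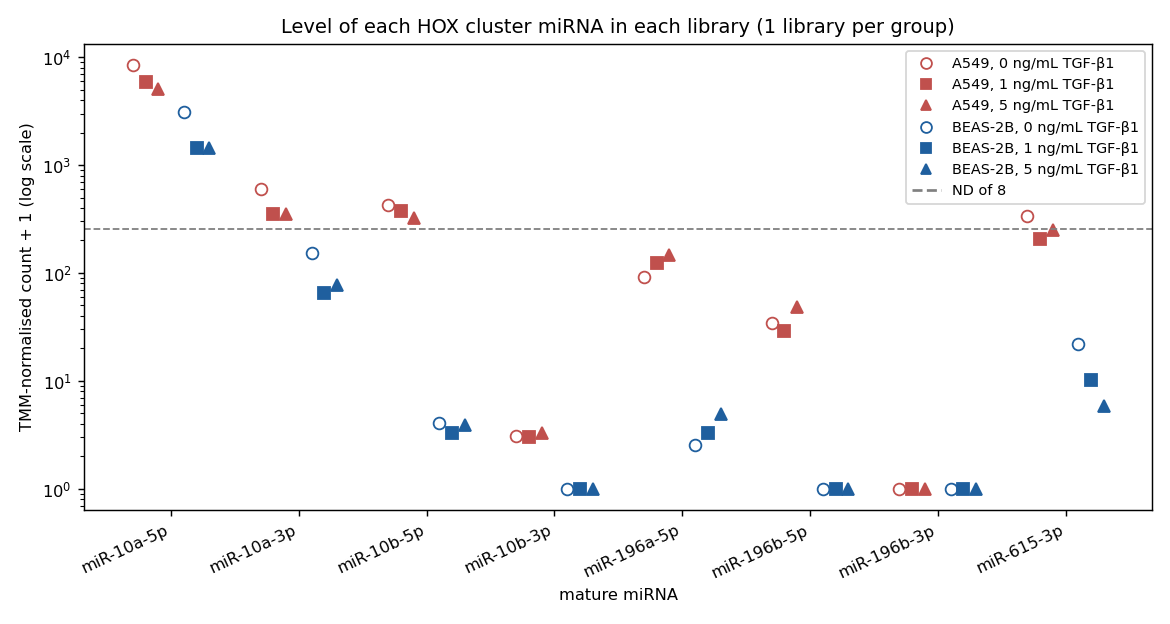
TMM-normalised count + 1 on a log axis (y) for each of the 8 miRNAs (x) in the 6 libraries, with red for A549, blue for BEAS-2B, open circles for untreated cells, squares for 1 ng/mL and triangles for 5 ng/mL. The dashed line is an ND of 8. miR-10a-5p stood above it in all 6 libraries, and miR-10a-3p, miR-10b-5p and miR-615-3p reached it in A549 libraries alone.

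The first comparison was between the lines. A miRNA met the ND threshold when the higher of the libraries compared had an ND of 8 or more (a normalised count of 255). It was past the criteria when the levels also differed by 1.4-fold or more. Both thresholds are the study's, while applying the ND threshold to the higher library was a choice made here. Between untreated cells, 4 of the 8 miRNAs met the ND threshold and all 4 were past the fold threshold, each higher in A549 cells, where 68.9% of the 135 miRNAs tested were past both in 1 direction or the other. At 1 ng/mL 3 met the ND threshold and all 3 were past the criteria, against 64.3% of all tested, and at 5 ng/mL the numbers were 3 and 3, against 67.8%. In each of these comparisons all but miR-10a-5p met the ND threshold through the A549 library alone and so had to be higher there, and nothing is read from the counts. The BEAS-2B control, which stood apart, takes part in the untreated comparison and not in the treated ones.

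miR-10a-5p was 2.71-fold higher in untreated A549 cells than in untreated BEAS-2B cells (95% interval 2.61 to 2.82), 4.08-fold higher at 1 ng/mL (3.84 to 4.34) and 3.54-fold higher at 5 ng/mL (3.34 to 3.76). miR-10a-3p was 3.95-fold higher in untreated cells (3.36 to 4.67), 5.50-fold at 1 ng/mL and 4.63-fold at 5 ng/mL. The line difference of these arms was the smallest among the miRNAs that could be measured.

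miR-615-3p was 16.0-fold higher in untreated A549 cells (10.8 to 24.7). At 1 ng/mL the ratio was 22.2-fold (11.1 to 52.2) and at 5 ng/mL 50.3-fold (21.2 to 157), from 8 and 5 BEAS-2B counts, with the greater ND of the pair below 8. miR-10b-5p had 407 counts in untreated A549 cells and 4 in untreated BEAS-2B cells, a ratio of 138-fold with a counting interval of 53.3 to 508. At 5 ng/mL 277 and 3 counts gave 110-fold (37.1 to 535).

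The miR-196 arms were below the ND threshold in every library. miR-196a-5p had 87 and 2 counts in untreated A549 and BEAS-2B cells, a ratio of 58.8-fold with an interval of 15.8 to 494. For miR-196b-5p, 3 counts per library were taken as the limit for BEAS-2B cells and the A549 counts as exact. It was then at least 14.4-fold higher in untreated A549 cells, 8.09-fold at 1 ng/mL and 16.2-fold at 5 ng/mL. With the counting error of both libraries, the lower 95% limits were 11.1-fold, 6.16-fold and 12.6-fold.

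Over the 3 doses, the lowest A549 library was above the highest BEAS-2B library for 4 of the 4 miRNAs that reached an ND of 8 in any library, namely miR-10a-5p, miR-10a-3p, miR-10b-5p and miR-615-3p. Ranges with A549 above were found for 35.7% of the 157 miRNAs that reached an ND of 8 anywhere. Of the 4, only miR-10a-5p reached it in BEAS-2B cells, so for the others the filter itself favoured A549 cells, and nothing is read from the count. The endothelial marker miR-126-3p was also higher in A549 cells, at 1270 to 1841 CPM against 257 to 534 CPM, and its part in the line difference was not tested. In libraries of whole cultures, fewer cells with a miRNA and less of it per cell cannot be told apart.

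The second comparison was between treated and untreated A549 cells, and both doses share the 1 untreated library. At 5 ng/mL, 4 of the 8 miRNAs met the ND threshold and 2 were past the fold threshold, both lower, where 53.2% of the 141 miRNAs tested were past both thresholds. At 1 ng/mL 4 met it and 3 were past, all lower, where 48.9% of 137 were past. The median log2 ratio of the miRNAs that met the ND threshold was -0.58 at 5 ng/mL and -0.60 at 1 ng/mL, against -0.03 and -0.11 over all miRNAs tested. miR-615-3p met the threshold through the untreated library alone and so had to be lower after treatment, while miR-10a-5p, miR-10a-3p and miR-10b-5p met it in all 3 A549 libraries.

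miR-10a-5p was lower at both doses, with a log2 ratio of -0.73 at 5 ng/mL (95% interval -0.79 to -0.68) and -0.52 at 1 ng/mL (-0.56 to -0.47). miR-10a-3p had -0.75 at 5 ng/mL (-0.96 to -0.55) and -0.77 at 1 ng/mL (-0.96 to -0.57). Both arms of the HOXB hairpin were thus past the criteria at each dose. Without the BEAS-2B control in the scaling, an alternative chosen after seeing the data, miR-10a-5p had -0.83 and -0.58, and 3 miRNAs were past the criteria at each dose, since miR-615-3p passed 1.4-fold at 5 ng/mL as well, with -0.52.

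miR-615-3p was past the criteria at 1 ng/mL, with a log2 ratio of -0.69 (-0.95 to -0.44), and short of 1.4-fold at 5 ng/mL, with -0.43 (-0.69 to -0.18). miR-10b-5p was short of 1.4-fold at both doses, with -0.39 (-0.62 to -0.17) at 5 ng/mL, against -0.17 (-0.38 to 0.03) at 1 ng/mL. The interval at 1 ng/mL includes no change.

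miR-196a-5p had positive log2 ratios, 0.69 (0.29 to 1.11) at 5 ng/mL, against 0.44 (0.04 to 0.86) at 1 ng/mL, with an ND below 8 in all libraries, so it could not be past the criteria. miR-196b-5p, with its shared seed, had 0.51 (-0.18 to 1.23) at 5 ng/mL, against -0.24 (-1.03 to 0.53) at 1 ng/mL, so no difference was detectable at this depth. The signs of miR-196a-5p and of the miR-10a arms were the same under all 6 other scalings tried.

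Of the 5 mesenchymal marker miRNAs, miR-143-3p and miR-145-5p had more counts in each treated library than in the untreated library of its line. miR-199a-3p and miR-199a-5p did not, with 4 counts or fewer in every library, and miR-214-3p had 0 counts in all 6 libraries. Together the 5 came to 198 CPM in untreated A549 cells, 1920 at 1 ng/mL and 1825 at 5 ng/mL, mainly from miR-143-3p. The BEAS-2B sums were 19.0, 107 and 142 CPM in the same order. The summed level of the 6 epithelial markers was 277, 426 and 469 CPM in A549 cells and 642, 452 and 433 CPM in BEAS-2B cells. Their part in the differences of the HOX cluster miRNAs was not tested.

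The third comparison was between treated and untreated BEAS-2B cells, which again share 1 untreated library, the one that stood apart. At 5 ng/mL 1 of the 8 miRNAs met the ND threshold and was past the fold threshold, lower, where 36% of the 125 miRNAs tested were past both. At 1 ng/mL it was again 1 of 1, lower, where 29.2% of 120 were past. That miRNA was miR-10a-5p, with a log2 ratio of -1.12 at 5 ng/mL (-1.21 to -1.03) and -1.10 at 1 ng/mL (-1.20 to -1.01), so that its treated level was 0.460 and 0.465 times the untreated one.

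The other miRNAs had too few BEAS-2B counts to meet the ND threshold. miR-10a-3p had a log2 ratio of -0.97 at 5 ng/mL (-1.38 to -0.59) and -1.23 at 1 ng/mL (-1.70 to -0.81). miR-615-3p, from 27 untreated counts, had -1.88 at 5 ng/mL (-3.82 to -0.69) and -1.08 at 1 ng/mL (-2.51 to 0.01). For miR-10b-5p and miR-196a-5p, at 2 to 4 counts in each library, the intervals ran from below to above no change by more than 1.4-fold each way.

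The difference between the responses of the lines was taken for the miRNAs measured in both. For miR-10a-5p the log2 ratio of A549 cells minus that of BEAS-2B cells was 0.59 at 1 ng/mL (0.48 to 0.69) and 0.38 at 5 ng/mL (0.28 to 0.49), the smaller reduction being in A549 cells. With total-count scaling it was 0.88 (0.77 to 0.98) and 0.95 (0.85 to 1.06). Measured against its relatives outside the HOX clusters, with no scaling, its log2 change at 1 ng/mL was -1.05 (A549) and -1.19 (BEAS-2B). At 5 ng/mL it was -1.37 and -0.97, the larger fall of this ratio being in A549 cells. There 4 of the 5 relatives were themselves past the criteria, all higher, where 53.2% of all miRNAs tested were past. In BEAS-2B cells 1 of the 5 was, lower, where 36% were past. The ratio thus also holds the change of the relatives, and the order of the lines at 5 ng/mL depends on the reference. For miR-10a-3p the difference was 0.48 (-0.01 to 0.98) and 0.23 (-0.21 to 0.68) at 1 and 5 ng/mL, and both intervals include no difference. With total-count scaling it was 0.77 (0.28 to 1.27) and 0.79 (0.35 to 1.24), and neither interval does. For miR-615-3p it was 0.47 (-0.74 to 1.85) at 1 ng/mL, against 1.65 (0.22 to 3.40) at 5 ng/mL, from 8 and 5 treated BEAS-2B counts. The differences were taken without the 1 that ND adds to each normalised count. At such low counts they therefore depart from the log2 ratios given above. These intervals hold no biological error, and with 1 library per group whether the lines differ in response was not tested.

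**Figure D3:**
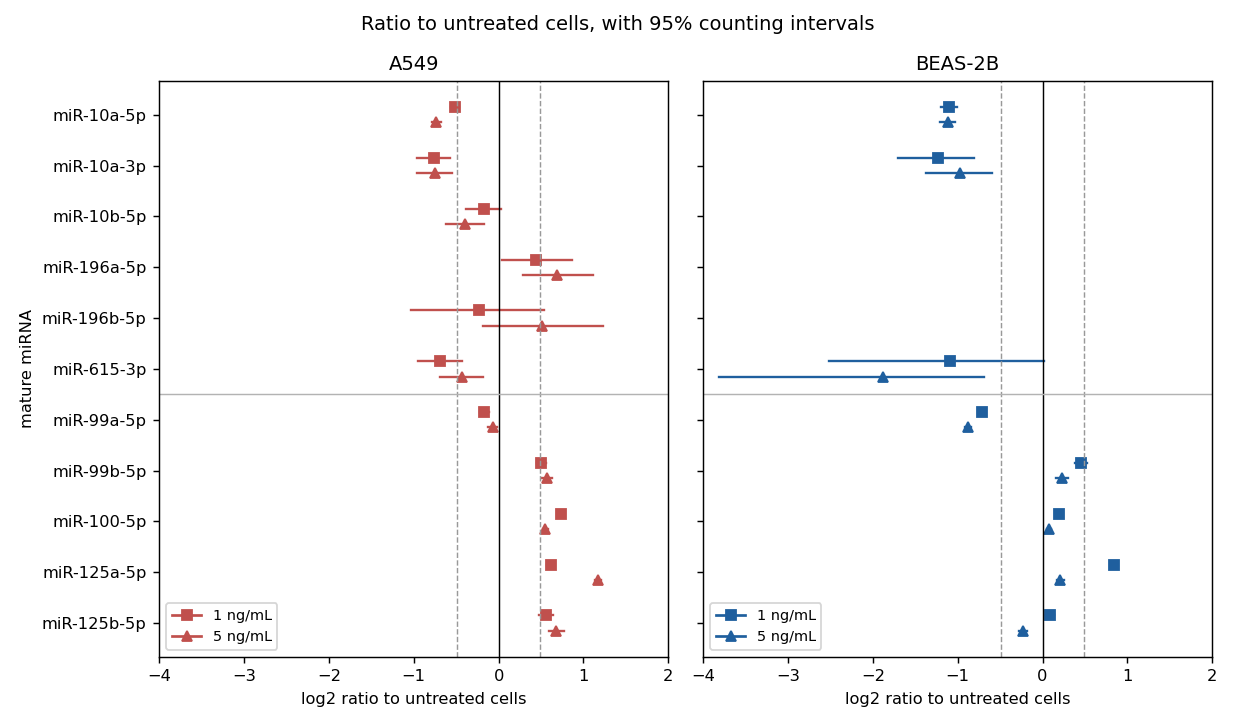
Log2 ratio of treated to untreated cells (x) for the HOX cluster miRNAs that could be measured and, below the grey line, for the relatives of miR-10 outside the clusters, in A549 cells (left) and BEAS-2B cells (right). Squares are 1 ng/mL, triangles 5 ng/mL, bars 95% counting intervals, and dashed lines a fold change of 1.4. The miR-10a arms lay left of the lower dashed line in both lines, at -0.52 to -1.23, while miR-196a-5p in A549 cells lay at 0.44 and 0.69.

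The doses were compared directly as well. In A549 cells 3 of the 8 miRNAs met the ND threshold in the treated libraries and 0 were past the fold threshold between 5 and 1 ng/mL, where 16.9% of 130 miRNAs were past. For BEAS-2B cells it was 0 of 1, where 6.61% of 121 were past. miR-10a-5p had a log2 ratio of 5 to 1 ng/mL of -0.22 (-0.28 to -0.16) in A549 cells and -0.01 (-0.12 to 0.10) in BEAS-2B cells. The sign in A549 cells turned with total-count scaling, to 0.08, so no order of the doses was taken from it.

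Ratios between miRNAs of 1 library do not depend on the scaling. The ratio of miR-10a-5p to miR-10a-3p, the arms of 1 hairpin, was 14.1 in untreated A549 cells (95% interval 13.0 to 15.4), 16.8 after 1 ng/mL and 14.3 after 5 ng/mL. The BEAS-2B ratios were 20.6 (17.8 to 23.9), 22.7 and 18.7. On the log2 scale it differed between treated and untreated cells by 0.02 (-0.19 to 0.23) in A549 cells and -0.14 (-0.54 to 0.27) in BEAS-2B cells at 5 ng/mL, and both intervals include no change. At 1 ng/mL in A549 cells the difference was 0.25 (0.05 to 0.45). Between the untreated lines it was -0.54 (-0.79 to -0.30), with relatively more of the 3p arm in A549 cells.

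The main arm of miR-10b outnumbered the other by far more, at 407, 374 and 277 counts to 2 counts each in A549 cells. The share of miR-10b-5p in the sum of miR-10a-5p and miR-10b-5p was 4.79% in untreated A549 cells (4.35 to 5.27) and 5.99% at 5 ng/mL (5.32 to 6.72), with an interval of 5.42 to 6.62% at 1 ng/mL. The BEAS-2B shares were 0.0991% (0.0270 to 0.253), 0.160% (0.0194 to 0.578) and 0.205% (0.0424 to 0.599). The A549 intervals lay wholly above the BEAS-2B intervals. In A549 cells the ratio of miR-10a-5p to miR-10b-5p was lower with treatment, by a log2 change of -0.34 at 5 ng/mL (-0.57 to -0.11) and -0.34 at 1 ng/mL (-0.55 to -0.13), so relatively less of the HOXB miRNA was counted after treatment.

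Among the miR-196 paralogs, miR-196a-5p made up 73.1% of their sum in untreated A549 cells (64.2 to 80.8), 81.5% at 1 ng/mL (74.3 to 87.3) and 75.4% at 5 ng/mL (68.2 to 81.8). These intervals overlap, and no shift between the paralogs was detectable at this depth. The ratio of miR-615-3p to miR-196a-5p, chosen after seeing the data, was lower with treatment in A549 cells, by a log2 change of -1.13 at 5 ng/mL (-1.62 to -0.64) and -1.14 at 1 ng/mL (-1.63 to -0.65). These miRNAs thus moved apart within the same libraries. MIR615 and MIR196A2 lie in the same cluster, and the reads of MIR196A2 cannot be separated from those of MIR196A1.

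The relatives of miR-10 outside the HOX clusters gave a second scale. The 5 are miR-99a-5p, miR-99b-5p, miR-100-5p, miR-125a-5p and miR-125b-5p. In A549 cells all 5 met the ND threshold and 4 were past the fold threshold at each dose, all 4 higher. Over all miRNAs tested, 53.2% of 141 were past both thresholds at 5 ng/mL and 48.9% of 137 at 1 ng/mL, with 38 and 37 higher. miR-125a-5p, a homolog of the worm developmental regulator lin-4, had 7505, 11901 and 15118 counts at 0, 1 and 5 ng/mL, and its log2 ratio at 5 ng/mL was 1.17 (1.13 to 1.21). miR-99a-5p was the exception, with -0.07 (-0.12 to -0.02).

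In BEAS-2B cells miR-99a-5p had 26190, 10595 and 11167 counts and was past the criteria at each dose, lower, with log2 ratios of -0.72 (-0.75 to -0.68) at 1 ng/mL, against -0.88 (-0.91 to -0.85) at 5 ng/mL. miR-125a-5p was past them at 1 ng/mL, higher, with 0.84 (0.80 to 0.88). The signs of the other family members in BEAS-2B cells turned under some scalings. miR-10a-5p was thus lower in both lines, as was miR-99a-5p, which was short of 1.4-fold in A549 cells. The relatives of miR-10a-5p did not move as 1 group.

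As a share of itself plus these 5 relatives, miR-10a-5p was 19.1% in untreated A549 cells, 10.2% at 1 ng/mL and 8.38% at 5 ng/mL. Its BEAS-2B shares were 4.43%, 1.99% and 2.32%. The log2 change of its ratio to them, a measure chosen after seeing the data, was -1.05 (-1.11 to -1.0) at 1 ng/mL, against -1.37 (-1.43 to -1.32) at 5 ng/mL for A549 cells. For BEAS-2B cells the changes were -1.19 (-1.28 to -1.10) and -0.97 (-1.05 to -0.88). Every treated library thus had a lower share of miR-10a-5p than the untreated library of its line, without any scaling between libraries. For BEAS-2B cells that untreated library is still the one that stood apart.

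**Figure D4:**
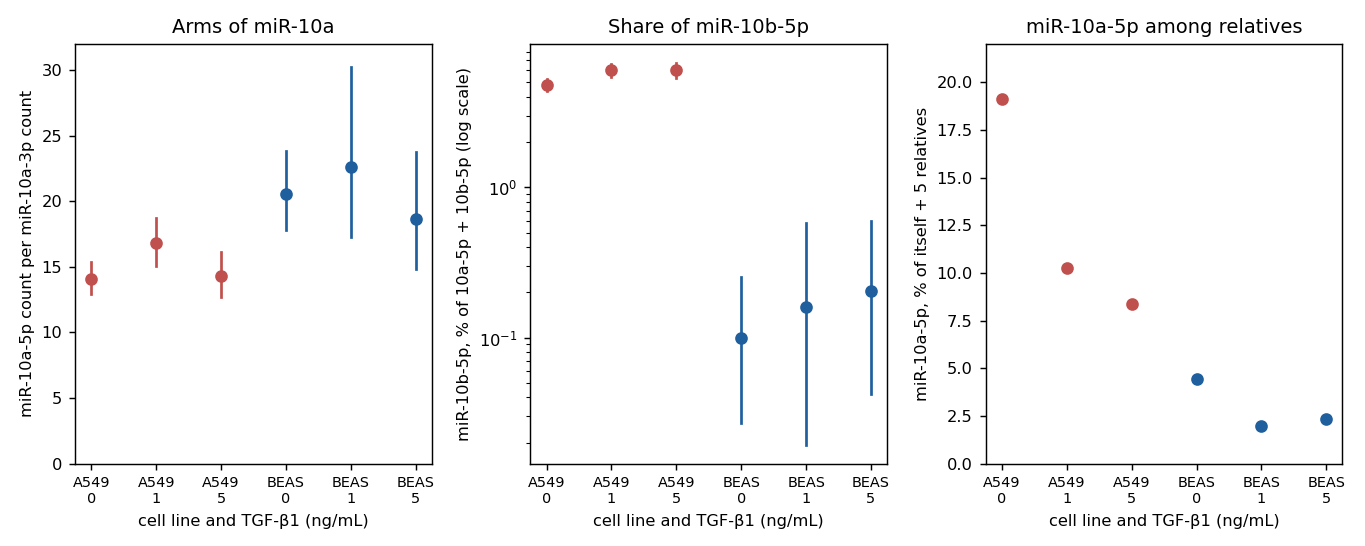
Ratios within each library, by cell line and TGF-β1 dose in ng/mL (x), with A549 in red, BEAS-2B in blue and bars for 95% counting intervals. Left, counts of miR-10a-5p per count of miR-10a-3p; middle, miR-10b-5p as a percentage of miR-10a-5p plus miR-10b-5p, on a log axis; right, miR-10a-5p as a percentage of itself plus 5 relatives. The right panel falls from 19.1% to 8.38% in A549 cells and from 4.43% to 2.32% in BEAS-2B cells between 0 and 5 ng/mL.

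Since the libraries differed in composition, the ratios were also taken under 6 other scalings. For miR-10a-5p the log2 ratio lay between -1.0 and -0.58 in A549 cells at 5 ng/mL and between -0.68 and -0.46 at 1 ng/mL. The BEAS-2B values lay between -1.53 and -0.94 and between -1.69 and -1.06. With unscaled counts, -0.46 at 1 ng/mL in A549 cells was short of 1.4-fold. miR-196a-5p in A549 cells lay between 0.53 and 0.84 at 5 ng/mL, and miR-615-3p between -0.59 and -0.27. Over the miRNAs that met the ND threshold, total-count scaling shifted the log2 ratio by a median of -0.41 and -0.43 for BEAS-2B cells given 5 and 1 ng/mL. For A549 cells the median shift was 0.16 and -0.14.

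**Figure D5:**
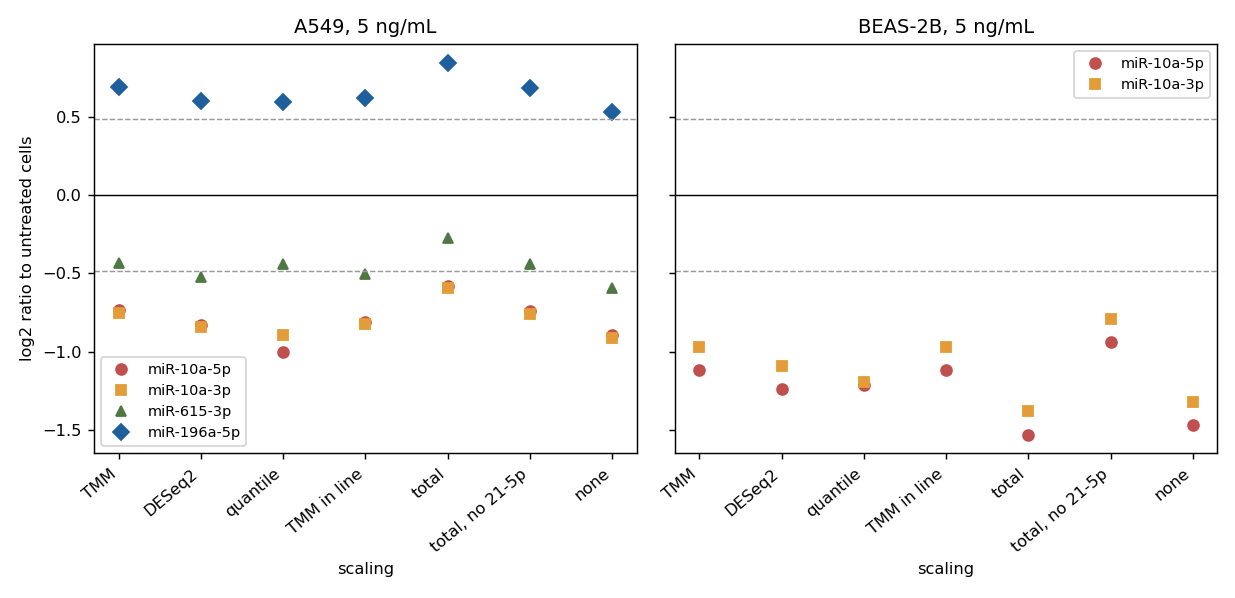
Log2 ratio of 5 ng/mL to untreated cells (y) under each scaling (x), for A549 cells (left; red circles miR-10a-5p, orange squares miR-10a-3p, green triangles miR-615-3p, blue diamonds miR-196a-5p) and BEAS-2B cells (right; the miR-10a arms). Dashed lines mark a fold change of 1.4. miR-10a-5p lay at -1.0 to -0.58 in A549 cells and -1.53 to -0.94 in BEAS-2B cells, below the dashed line under all scalings shown, while miR-615-3p in A549 cells lay on either side of it.

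The miRNAs whose ND profile over the 6 libraries was nearest were found for the 4 miRNAs with an ND of 8 or more in any library, each miRNA centred on its own mean and compared with 156 others. For miR-10a-5p the nearest were miR-1180-3p (root mean square difference 0.24 in ND), miR-10a-3p (0.25) and miR-224-5p (0.31), where the median over all compared was 1.07. miR-1180-3p had 451, 311 and 298 counts in A549 cells and 157, 60 and 71 in BEAS-2B cells, again highest in each untreated library. miR-10a-3p was nearest to miR-1180-3p (0.16), miR-10a-5p (0.25) and miR-182-5p (0.37).

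miR-10b-5p was nearest to miR-9-5p (0.55), miR-192-5p (0.72) and miR-1299 (0.80), where the median was 3.26. miR-9-5p, a miRNA best known from the nervous system, had 447, 484 and 314 counts in A549 cells and 8 in each BEAS-2B library. miR-615-3p was nearest to miR-194-5p (0.41), miR-215-5p (0.54) and miR-192-5p (0.62), with a median of 2.30. For both, the shared feature was a high level in A549 cells and a low one in BEAS-2B cells.

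The files list 4 more mature miRNAs from the HOX clusters, and none reached an ND of 8. miR-196a-3p and miR-3185 had 0 counts in all 6 libraries, and miR-615-5p had 1 count in the A549 library at 1 ng/mL and 0 elsewhere. miR-7704, with the sequence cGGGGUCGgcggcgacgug (seed in capitals), is shown because it alone of them was measured. Its hairpin at chr2:176188843-176188901 on the plus strand overlaps a coding exon of HOXD1, so its reads cannot be told apart from fragments of that mRNA.

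miR-7704 had 33, 87 and 97 counts in A549 cells at 0, 1 and 5 ng/mL and 49, 40 and 59 in BEAS-2B cells. Its log2 ratio in A549 cells was 1.32 (0.75 to 1.97) at 1 ng/mL, against 1.69 (1.13 to 2.33) at 5 ng/mL. The BEAS-2B values were 0.29 (-0.34 to 0.93) and 0.60 (0.05 to 1.20). Between the lines, its log2 ratio of A549 to BEAS-2B was -0.13 (-0.82 to 0.53) in untreated cells, where no difference was detectable at this depth. It was 0.90 (0.36 to 1.49) after 1 ng/mL and 0.95 (0.48 to 1.46) after 5 ng/mL.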

How the data were processed

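Mature miRNAs were counted by small RNA sequencing in 6 libraries, 1 per cell line and TGF-β1 dose, grouped by their labels. The deposited values are raw read counts per mature miRNA, which the authors made with Bowtie2 and bedtools per the submitters' processing notes. The aligner settings, genome build, miRNA annotation release, handling of strand and of reads with several matches, and molecular identifiers are not given in the sources used here, so intervals and limits cover counting error only. All 2588 miRNAs of each library were used to set the scaling. The 8 miRNAs, the lists and the criteria were chosen with earlier results of these data known.

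TMM factors came from edgeR 4.0.16 in R 4.3.3, and counts were scaled to the mean effective library size of 749498. Which normalisation the study used for its ND values is not given in the sources used here. ND stood for log2(normalised count + 1), and differences of ND were given as log2 ratios. Where a fold change rested on few counts it was taken without the pseudocount of 1. Ratios and shares have exact 95% Clopper-Pearson intervals, for ratios by conditioning on the summed count and scaling with the effective library sizes. Changes of ratios have exact conditional odds-ratio intervals, or, for miR-10a-5p against its relatives with their large counts, normal approximations. The difference between the responses of the lines was taken without the pseudocount and had a conditional interval of the same kind. No test and no p-value was computed.

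All 8 miRNAs were named, with the other miRNAs of the HOX clusters, 5 relatives of miR-10 and the 3 nearest profiles of each miRNA that reached an ND of 8 anywhere. The alternatives were DESeq2 1.42.0 size factors, quantile normalisation with limma 3.58.1, total counts with and without hsa-miR-21-5p, TMM within each line, no scaling, other ND and fold thresholds and other pseudocounts. Python 3.11.15, numpy 2.4.6, pandas 2.3.3, scipy 1.17.1 and matplotlib 3.10.9 served for the calculations, which were tested on simulated data.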

Additional observations from a re-analysis of the deposited data

How the results depend on the processing

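The number of the 8 miRNAs past the criteria moved with the thresholds more than with the scaling. In A549 cells at 5 ng/mL it was 2 and became 3 with DESeq2 size factors and with TMM within each line, since miR-615-3p passed. It became 4 without scaling, 4 without the ND criterion (2 higher and 2 lower) and 0 with a fold change of at least 2. At 1 ng/mL it was 3 and became 0 with a fold change of at least 2 and 1 where the whole interval had to lie beyond 1.4-fold. In BEAS-2B cells it was 1 at each dose and became 2 at each with an ND of at least 7, and 4 at 5 ng/mL and 3 at 1 ng/mL without the ND criterion. Between 5 and 1 ng/mL it was 0 in each line and became, without the ND criterion, 1 in A549 and 2 in BEAS-2B cells. Between the untreated lines it was 4 and became 2 with an ND of at least 9, 1 with the ND criterion on both libraries and 7 without it. The share of all miRNAs past the criteria was not computed for the changed settings. Nothing about the 8 miRNAs against other miRNAs is therefore read from these counts. Of 124 recomputed counts, shares and arm ratios, 110 stayed within 1.5 times the count, or within the interval, reported above. The shares and arm ratios were recomputed only by adding a small constant to each count, which left them little room to move. Of 337 recomputed log2 ratios of single miRNAs, 298 stayed within their interval, and none past the criteria changed sign. The untreated line ratio of miR-10a-5p lay between 0.90 and 1.39 on the log2 scale under 5 other scalings. In BEAS-2B cells, 7 of the 8 miRNAs stayed below an ND of 8 in every library, and miR-10b-3p, miR-196b-5p and miR-196b-3p had 0 counts. TMM without the BEAS-2B control, and the ratios of miR-10a-5p to its relatives and of miR-615-3p to miR-196a-5p, were chosen after seeing the data. The labels give no replicate numbers to pair samples by, and a fit with the cell line as a block was not run.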
